A study of Mus musculus with 3 samples.

Results

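The transcription factors that give developing T cells their identity were examined in normal thymocytes, the maturing T cells of the thymus: RUNX1, RUNX2, RUNX3 and their partner CBFB, GATA3, BCL11B, SATB1, TOX and MYB. The genes were taken as a fixed list of 9 symbols and matched to the array's probe sets whose annotation gives that symbol alone. Of the 9 genes, 8 were measured, each by 1 probe set, among 19938 named genes on the array; Runx2 is not analysed here as an expression value. All 8 were above background in every sample, and none passed the test for spread between the samples. In the values as deposited, Runx3 had the widest range, 1.51-fold, and Tox the narrowest, 1.03-fold.

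The samples were 3 wild-type (wt) thymocyte preparations from mice on a mixed FVB and C57BL6 genetic background, numbered 92, 103 and 106 in the labels, from a study of lymphomas in tPTEN-/- mice. Total RNA was hybridised to Affymetrix mouse gene arrays. The tumour arrays of that study were not analysed here, so there was 1 group and no contrast between groups. The labels give no age, treatment or pooling. They list T cell lymphoma as the disease state of these wt samples, an RNA integrity number (RIN) of 3 and an RNA amount of 0.3 µg. Nothing in them says that the samples are separate cultures or litters, so p-values measure only the spread between these 3 samples.

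RUNX proteins bind DNA through a runt domain and do so stably only with CBFB, which itself makes no contact with DNA. In thymocytes RUNX1 and RUNX3 silence Cd4 at the appropriate stages and RUNX3 directs the cytotoxic CD8 lineage, whereas GATA3 and TOX act upstream of ZBTB7B (ThPOK) in the helper CD4 lineage. BCL11B closes the alternative fates at T lineage commitment, SATB1 organises chromatin loops, and MYB maintains progenitors and double-positive thymocytes.

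The start regions of the RUNX genes are shown first because all 3 share a stretch that the choice of genes did not use. RefSeq promoter windows of build GRCm38.p6, from 250 bases before to 50 bases after an annotated start, were held for 8 of the 9 genes, in 14 windows; Tox was not matched. The capitals mark a pair of RUNX motifs, that is ACCACA repeated after any 2 bases, searched on both strands. The pair was noticed on reading these windows and then searched for in all of them, so its match in the RUNX genes is a description that chose the motif. The 30 bases around the pair are given 5′ to 3′ on the strand of the gene, from chr16:92826025-92826054 (minus strand), chr17:44814583-44814612 (minus strand) and chr4:135120503-135120532 (plus strand).
Runx1: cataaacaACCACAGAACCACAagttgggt
Runx2: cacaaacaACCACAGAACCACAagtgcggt
Runx3: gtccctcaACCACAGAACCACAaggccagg

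The pair ACCACAGAACCACA was identical in the 3 genes, including its middle bases. It lay at bases 29 to 42 after the annotated start of Runx1 and 24 to 37 after that of Runx2, downstream of the annotated start, and at bases -134 to -121, that is before the start, of Runx3. For Runx1 and Runx3, which have 2 windows each, only the upstream window held it. Among 32851 windows of the same length, 7 (0.0213%) held the pair with any 2 bases in the middle. Besides the RUNX genes these were Gm16225, whose window overlaps that of Runx3 so that its match is the same stretch of chromosome 4 read from the other strand, Gm15462, Gm12236 and the olfactory receptor gene Olfr24. Olfr24 read 5.60, 5.61 and 5.56 on the log2 scale in samples 92, 103 and 106, below background in each. It is itself among the receptor genes from which background was taken, most of which lie below it by definition.

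The single RUNX motif ACCACA was in 16.8% of all windows and in 3 of the 14 windows of these genes, the same 3. GATA motifs (AGATAA or AGATAG or TGATAA or TGATAG, either strand) were in 29.8% of all windows and in 1 of the 14, that of Gata3. MYB motifs (CAACTG or CAACGG or TAACTG or TAACGG, either strand) were in 28.3% of all windows and in 4 of the 14, 1 of Runx1 and 3 of Satb1; 2 of the Satb1 windows overlap and hold the same match. These are matches of letters and do not show binding.

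Array levels are log2 values as deposited, and probes differ in affinity, so a level was set against background and not ranked against another gene. Where a gene is given relative to another, only the change between samples is read. Sums of linear levels over a list are weighted by the affinity of its probes. Background was the 95th percentile of 1203 olfactory, vomeronasal and trace amine receptor genes on the same array, at 5.91, 6.10 and 6.001 in samples 92, 103 and 106. Of all named genes, 61.8% exceeded it on all 3 arrays; the T identity factors did so in 8 of 8 cases. Array medians were 6.70 to 6.72, and with only 3 arrays every value has limited precision. Thymocyte markers were present: 9 of 9 measured genes (Cd3d, Cd3e, Cd3g, Cd4, Cd8a, Cd8b1, Rag1, Ptcra and Thy1) were above background throughout. Sample 92 stood apart in Xist, the RNA of the inactive X chromosome of female cells, at 5.30 against 11.85 in sample 103 and 11.67 in sample 106. The reading in sample 92 was below its background of 5.91. A difference in sex was not tested, and it cannot be told apart from any other difference between sample 92 and the other samples.

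**Figure D1:**
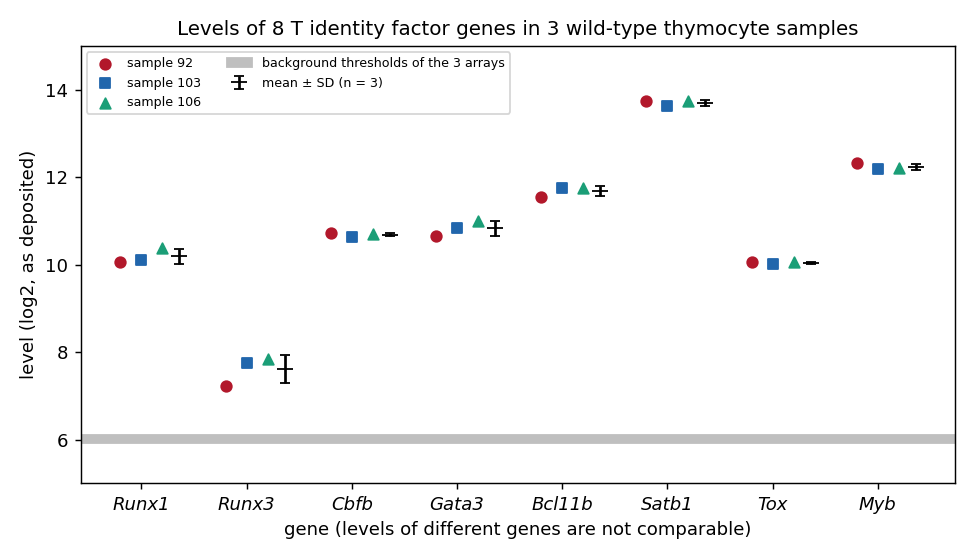
Log2 levels, as deposited, of the 8 measured T identity factor genes (x axis) in wt thymocyte samples 92, 103 and 106, with the mean and SD of the 3 samples beside them and the background thresholds of the 3 arrays as a grey band from 5.91 to 6.10. Every point lies above the band; Runx3 in sample 92, at 7.23, comes nearest to it.

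The RUNX DNA-binding subunits read higher in sample 106 than in sample 92. Runx1 (probe set 10441003) lay at 10.06, 10.11 and 10.38 in samples 92, 103 and 106, a mean of 10.19 ± 0.17 (SD, n = 3). Runx3 (probe set 10509030) lay at 7.23, 7.75 and 7.83, a mean of 7.60 ± 0.32 (SD, n = 3). For Runx1 sample 106 was the high one with the other two close together, while for Runx3 sample 92 was the low one. Runx3 remained 1.32 log2 units above the background threshold where it was lowest.

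The shared partner subunit was steadier. Cbfb (probe set 10574632) lay at 10.71, 10.64 and 10.70, a mean of 10.69 ± 0.040 (SD, n = 3), with sample 103 lowest. Relative to Cbfb on the same array, Runx3 was 0.59 higher in sample 103 and 0.61 higher in sample 106 than in sample 92, on the log2 scale. The same difference for Runx1 was 0.12 in sample 103 and 0.33 in sample 106. Samples 103 and 106 differed by 0.022 in Runx3 relative to Cbfb and by 0.21 in Runx1 relative to Cbfb, so the larger step lay between samples 92 and 103 for Runx3 and between samples 103 and 106 for Runx1.

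GATA3, a zinc finger factor required from the earliest T progenitors to CD4 lineage choice, had the second widest range. Gata3 (probe set 10479981) lay at 10.64, 10.84 and 10.99 in samples 92, 103 and 106, a mean of 10.83 ± 0.17 (SD, n = 3). The samples were spaced by 0.20 and 0.15, with sample 92 lowest and sample 106 highest, 1.27-fold apart.

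Bcl11b (probe set 10402554), the zinc finger repressor of T commitment, lay at 11.54, 11.74 and 11.76, a mean of 11.68 ± 0.12 (SD, n = 3). Samples 103 and 106 were 0.013 apart and sample 92 was about 0.20 lower. Its range was 1.16-fold.

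The chromatin organisers and MYB were lowest in sample 103 and highest in sample 92, with ranges of 0.13 or less. Satb1 (probe set 10451763) lay at 13.74, 13.62 and 13.73, a mean of 13.70 ± 0.066 (SD, n = 3), with sample 103 lowest. Tox (probe set 10511416), a high mobility group protein needed for CD4 T cell development, lay at 10.06, 10.02 and 10.05, a mean of 10.04 ± 0.019 (SD, n = 3). Only 1.42% of the 13316 genes tested had a smaller range than that of Tox, 0.036, in the values as deposited. After quantile and cyclic loess normalisation the range of Tox was 0.073 and 0.058, wider than that of Cbfb, 0.034 and 0.047. Myb (probe set 10368199), the proto-oncogene that also sustains haematopoietic progenitors, lay at 12.31, 12.19 and 12.20, a mean of 12.23 ± 0.071 (SD, n = 3), with sample 92 highest.

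**Figure D2:**
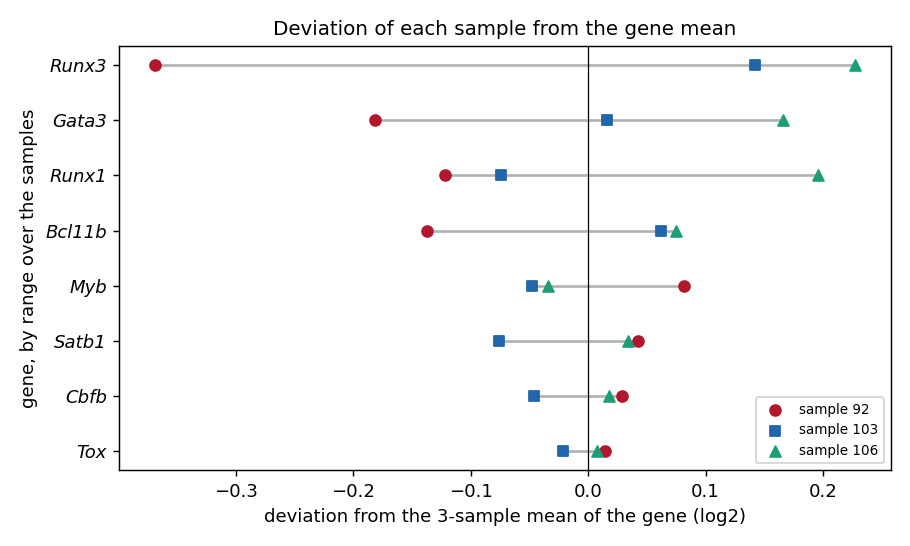
Deviation of each sample from the 3-sample mean of the gene, in log2 units (x axis), for the 8 genes ordered by range (y axis); grey lines join the lowest and highest sample. Runx3, Gata3, Runx1 and Bcl11b are lowest in sample 92 and highest in sample 106, whereas Myb, Satb1, Cbfb and Tox are lowest in sample 103 and highest in sample 92.

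The genes thus fell into 4 that were lowest in sample 92 (Runx1, Runx3, Gata3 and Bcl11b) and 4 that were lowest in sample 103 (Cbfb, Satb1, Tox and Myb). Of all genes tested, 35.1% were lowest in sample 92, 28.3% in sample 103 and 36.6% in sample 106, so the split is described and not read as particular to these genes. The first 4 stayed lowest in sample 92 after quantile normalisation, median centring and cyclic loess normalisation. With the quantile and the cyclic loess method Cbfb and Tox became lowest in sample 92, and Myb became lowest in sample 106 under both. The array identifiers of samples 92 and 106 share 30 of 32 leading digits, against 9 for sample 103 with either; the labels do not say what they stand for. Between these 2 samples Runx3 differed by 0.60, Gata3 by 0.35, Runx1 by 0.32 and Bcl11b by 0.21 on the log2 scale.

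Whether any of these genes varied more than genes of like level was tested with limma, over the 13316 genes above background on at least 1 array. None of the 8 genes passed at an adjusted p under 0.05, against 0.225% of all genes tested (30 genes), and 1 of 8, Runx3, had an unadjusted p under 0.05, against 4.85% of all. For Runx3 the unadjusted p was 0.041 and the adjusted p 0.99 (limma, Benjamini-Hochberg). Gata3 (unadjusted p = 0.26, limma) and Runx1 (unadjusted p = 0.28) followed, and the other 5 genes had unadjusted p-values from 0.49 to 0.98. The median SD of the 8 genes was 0.095, beside 0.13 over all genes tested. These medians are not matched for level, and limma's prior SD fell from 0.18 at a level of 6.01 to 0.12 at 14.19. One gene of the 8, Runx3, had a range of at least 0.5 on the log2 scale, as did 10.0% of all genes tested.

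The test was coarse with 3 samples. At the level of Runx3 an SD of 0.77 was needed for a call and at that of Tox 0.72, so a gene with a smaller SD could not be called. The range over the samples is wider than the SD, so the difference needed between samples was larger still. The B cell marker Bank1, with a range of 1.39 and an SD of 0.72, was not called (adjusted p = 0.12, limma). At its level an SD of 0.84 was needed. Without sample 92, Runx3 had an SD of 0.061 between the other two samples, which rests on 1 difference.

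**Figure D3:**
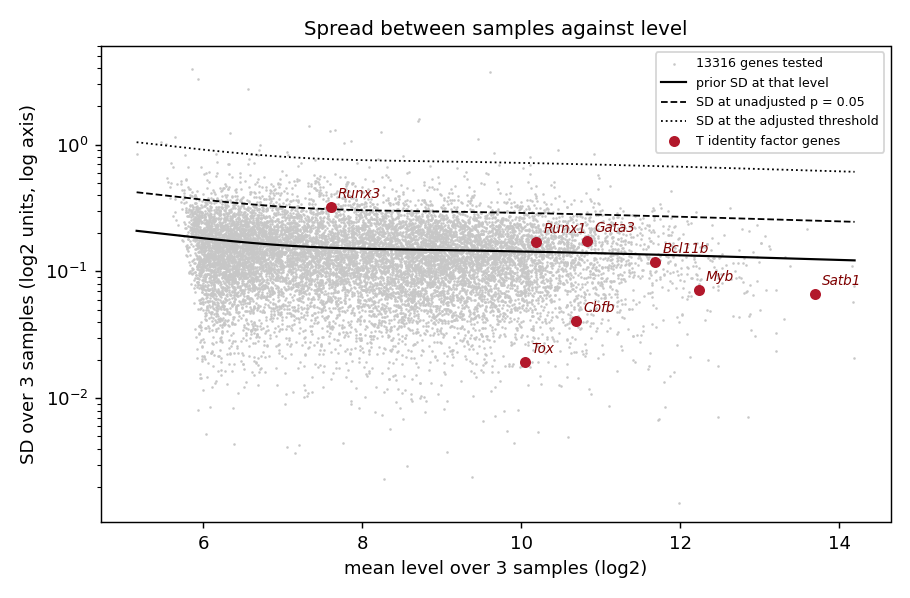
SD over the 3 samples (y axis, log2 units on a log axis) against mean log2 level (x axis) for all 13316 genes tested (grey) and the 8 T identity factor genes (red). Curves give limma's prior SD at each level, the SD at an unadjusted p of 0.05 and the SD needed at the adjusted threshold; Runx3, with an SD of 0.32, sits at the middle curve and the other 7 genes below it.

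Family paralogues, most of which act outside the T lineage, were measured in 11 of 12 cases, and 10 of the 11 were above background on all arrays. Gata1, the erythroid GATA factor, read 6.43, 6.92 and 6.72 in samples 92, 103 and 106, and Gata2, of stem and mast cells, 6.60, 6.91 and 6.94. Both lay within 1 log2 unit of background, as did Gata4 (6.69, 7.00 and 6.90) and Gata5 (6.44, 6.78 and 6.59), factors of heart and gut. Gata6 was above background in sample 106 alone, at 5.88, 6.09 and 6.25. A reading this close to the threshold does not show that such a gene was transcribed.

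Of the other paralogues, Mybl1 was the nearest to background, 0.053 above the threshold in sample 103. Tox4, a widely expressed relative of Tox, read 9.56, 9.65 and 9.68. Mybl2 (B-MYB), a factor of dividing cells, read 8.42, 8.997 and 8.95 and had the smallest p of the list (unadjusted p = 0.035, adjusted p = 0.93, limma). Its range of 0.58 exceeded the 0.13 of Myb, and the samples stood in the opposite order, with sample 92 lowest for Mybl2 and highest for Myb. Mybl1 read 6.56, 6.15 and 6.73, Bcl11a, the B cell and progenitor counterpart of Bcl11b, 7.20, 7.53 and 7.49, and Tox2 7.11, 7.43 and 7.33.

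None of the 11 paralogues passed the limma test and 1 had an unadjusted p under 0.05, against 4.85% of all genes tested. Sample 92 was lowest for 10 of the 11, also after each of the 3 other normalisations, against 35.1% of all genes tested. The median SD of the paralogues, most of them at low levels, was 0.18, against 0.13 over all genes, not matched for level. The background threshold of sample 92 was itself the lowest of the 3, and the part of background in these low readings was not tested.

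Corepressors and cofactors of these factors were measured in 11 of 12 cases, of which 9 were tested. Tle5, a short member of the Groucho family, read 11.15, 11.28 and 11.18 in samples 92, 103 and 106, and Tle3, a Groucho corepressor recruited by RUNX proteins, 9.88, 10.07 and 10.23. Patz1 (MAZR), a zinc finger repressor that acts with RUNX factors at Zbtb7b and binds Cd8 enhancers, read 10.85, 10.73 and 10.80. Its range of 0.11 was near that of Satb1. Zfpm1 (FOG1), the cofactor of GATA factors, read 8.36, 8.82 and 9.02, the same order of samples as Gata3, with an unadjusted p of 0.026 (limma). Tle1 ran differently, lowest in sample 103 and highest in sample 92, at 7.34, 6.59 and 6.92, with an unadjusted p of 0.025 (limma). Tle2 (7.53, 7.33 and 7.45), Tle4 (8.71, 8.56 and 8.70) and Patz1 had the same order as Tle1. In all, 4 of the 9 genes tested were lowest in sample 103 and 5 in sample 92.

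In the limma fit 0 of the 9 genes passed, the smallest adjusted p being 0.86, and 2 of 9 had an unadjusted p under 0.05, against 4.85% of all genes tested. Runx1t1 (ETO), the RUNX1 fusion partner of human leukaemia, and Zfpm2 (FOG2) were below background on every array. The ETO relatives Cbfa2t2 and Cbfa2t3 each had 2 probe sets that read at different levels, so their averages are less certain: those of Cbfa2t3 read 7.67, 7.94 and 7.86, and 8.53, 8.65 and 8.93.

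Genes known to be regulated by these factors, a list of 10 that holds coreceptors, recombinases and lineage regulators, were all above background. The coreceptor genes were steady: Cd4 read 12.15, 12.03 and 12.11, Cd8a 13.24, 13.18 and 13.22, and Cd8b1 12.97, 12.92 and 12.92. Zbtb7b, which opposes RUNX3 in lineage choice, had a range of 0.039, at 8.92, 8.96 and 8.94. Relative to Zbtb7b on the same array, Runx3 was 0.47 higher in sample 103 and 0.57 higher in sample 106 than in sample 92. Itgae (CD103), an integrin gene activated by RUNX3 in CD8 T cells, read 8.12, 8.32 and 8.39, in the same order as Runx3 but with an unadjusted p of 0.45 (limma).

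The recombinase genes were highest in sample 92. Rag1 read 13.81, 13.38 and 13.58 in samples 92, 103 and 106, and Rag2, which shares regulatory elements with Rag1, 10.24, 9.41 and 9.91. Both were lowest in sample 103. Rag2 had the smallest p of the list (unadjusted p = 0.0072, adjusted p = 0.55, limma). Itm2a, a membrane protein gene induced by GATA3, read 12.14, 11.56 and 11.54 (unadjusted p = 0.015, adjusted p = 0.74, limma), the opposite order to Gata3. In all 0 of 10 genes passed, against 0.225% of all genes tested, and 2 had an unadjusted p under 0.05, against 4.85%. The median SD was 0.12, against 0.13 over all genes, again not matched for level.

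Innate-like genes that BCL11B restrains were above background in 7 of 7 cases, although several are also genes of other blood cells. Id2, the inhibitor of E proteins, read 9.63, 9.43 and 9.43, and Zbtb16 (PLZF), the factor of innate-like T cells, 7.44, 7.47 and 8.0004. Fcer1g, a signalling chain of natural killer and myeloid cells, read 6.62, 7.70 and 7.22, and Tyrobp, a related adaptor, 7.22, 7.73 and 7.56. None of the 7 passed (smallest adjusted p = 0.34, limma) and 2, Fcer1g and Zbtb16, had an unadjusted p under 0.05, against 0.225% and 4.85% of all genes tested. Sample 92 was lowest for 4 of the 7, as for Bcl11b, against 35.1% of all genes, while Id2 and Nfil3 were lowest in sample 106 and Klrd1 in sample 103.

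Progenitor and myeloid regulators that are silenced at T commitment were above background on all arrays in 7 of 8 cases. Spi1 (PU.1), which RUNX1 represses in T cells, read 5.74, 6.31 and 6.47 and was below background in sample 92. Lmo2, a cofactor of stem cells and a T leukaemia oncogene, read 7.32, 8.25 and 8.03, and Mef2c 6.22, 6.99 and 6.90. Kit, the progenitor receptor, was steady at 6.80, 6.86 and 6.73. None passed (smallest adjusted p = 0.37, limma), 3 of 8 had an unadjusted p under 0.05 against 4.85% of all genes tested. In sample 92, 6 of 8 were lowest under each normalisation tried, against 35.1% of all genes as deposited, 41.4% after quantile, 33.1% after median and 37.6% after cyclic loess normalisation. Bcl11a is on this list and among the paralogues.

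Markers of several other blood cells were low in sample 92, and RUNX, GATA, BCL11 and MYB genes are transcribed in some of those cells. In these bulk samples fewer cells of a type and less RNA per cell cannot be told apart. Neutrophil markers were above background on all arrays in 6 of 8 cases and the sum of their linear levels was 715, 3447 and 2867 in samples 92, 103 and 106. Of these 8, 5 genes passed the limma test, against 0.225% of all genes tested: Ngp, Lcn2, S100a8, S100a9 and Ltf. Elane and Mpo were below background in sample 92.

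B cell markers passed background in 4 of 7 cases, with summed linear levels of 821, 1799 and 1407. Of the 6 tested, 1 passed the limma test, Cr2, against 0.225% of all genes tested. Ebf1 was below background throughout. Bank1, a B cell signalling scaffold, read 5.84, 7.23 and 6.83. Natural killer and cytotoxic markers passed in 5 of 8 cases, with sums of 1569, 2455 and 1942. Of the 6 tested, 5 were lowest in sample 92 and 1 in sample 106, against 35.1% and 36.6% of all genes tested. Their defining receptor genes Klrb1c and Ncr1 were below background in all samples. The sum for 8 macrophage and dendritic cell markers, of which 7 passed background, was 1747, 3163 and 2206, with Adgre1 below background throughout. That sum leans on Lyz2, which read 9.36, 10.67 and 10.02. Of the 7 tested, 5 were lowest in sample 92 and 2 in sample 106, against the same 35.1% and 36.6% of all genes tested. C1qc was among those lowest in sample 106, at 7.70, 8.32 and 7.35. Erythroid markers passed in 3 of 3 cases, with sums of 460, 1505 and 1308. Of these 3, 1 passed the limma test, Alas2, against 0.225% of all genes tested.

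The summed levels of these 5 lists were lowest in sample 92 and highest in sample 103. Runx3, Runx1, Gata3 and Bcl11b were also lowest in sample 92, and highest in sample 106. Sample 106 exceeded sample 103 by 0.086 for Runx3, 0.27 for Runx1, 0.15 for Gata3 and 0.013 for Bcl11b. The part of such blood cells in the spread of the RUNX, Gata3 and Bcl11b readings was not tested. Of the markers of group 2 innate lymphoid cells, which depend on GATA3, Il5 and Klrg1 were below background and Il13 was above it, with 3 of 5 measured. Bone-forming cells, the main site of RUNX2, had Sp7 and Ibsp below background and Alpl above it, with 3 of 5 measured. Thymic epithelial markers passed in 4 of 7 cases, with sums of 612, 767 and 663, and Foxn1 was below background.

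**Figure D4:**
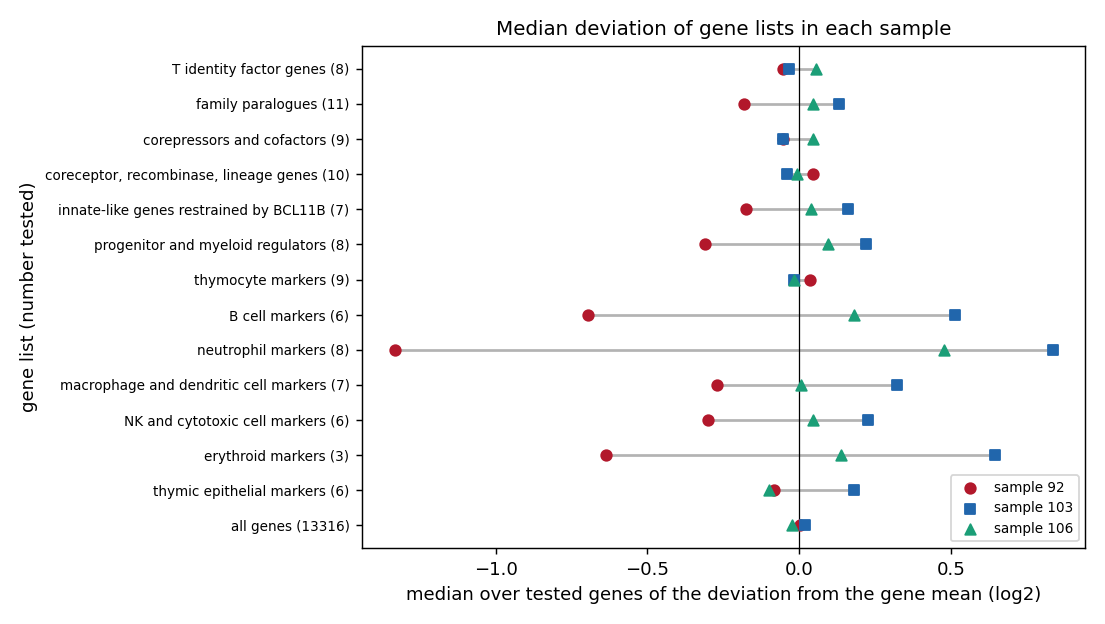
Median, over the tested genes of each list, of the deviation from the gene's 3-sample mean in log2 units (x axis) in samples 92, 103 and 106; lists with fewer than 3 tested genes are left out and the last line gives all 13316 genes. The median of the 8 T identity factor genes, which differ in direction, is -0.054 in sample 92 (-0.104 after quantile or cyclic loess normalisation), -0.034 in sample 103 and 0.055 in sample 106, while neutrophil markers lie at -1.33 in sample 92, 0.84 in sample 103 and 0.48 in sample 106.

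The genes whose pattern over the samples was most like that of each wide-ranging factor were found by the distance between centred log2 values, over 3 samples. For Runx3 they were Capn5 (distance 0.012), Hoxd9 (0.019) and Map7 (0.024), with 70 genes in all within 0.1. For Gata3 they were Nrap (0.0048), Nudc (0.0050) and Clic1 (0.0056), with 559 genes within 0.1. For Runx1 they were Prag1 (0.0062), Elmo1 (0.013) and Ccne1 (0.014), with 462 genes within 0.1. With 3 samples such likeness is common.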

How the data were processed

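Levels are log2 values of the deposited series table, 35557 probe sets on 3 arrays; the log2 scale was inferred from their range. Affymetrix Expression Console made them, per the submitters' processing notes; its version and its background, summary and normalisation steps are not given in these sources, and the authors may have normalised them together with arrays not analysed here. The platform annotation named the probe sets: 21789 had 1 symbol, 1621 had several and 12147 none; those of the same gene were averaged. Some listed genes had no probe set of their own and are not reported.

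Spread between samples was judged by limma 3.58.1 (R 4.3.3), with an intercept, a prior variance with a trend on level (10.4 prior degrees of freedom, not robust) and an upper-tail F ratio of each gene's variance over its prior, adjusted by Benjamini-Hochberg over all genes tested. It was run on simulated data, where the smaller shifts were mostly missed and some runs with many shifted genes lost calls. Lists got no test of their own. The genes, lists and rules were chosen with earlier results of these data known. Named were all 9 listed factors, any gene of the 5 context lists, markers below background, called or of widest range, and the 3 likest genes for the 3 factors of widest range. Promoter sequences came from RefSeq. The RUNX pair, GATA and MYB motifs were chosen after the promoter windows had been read, so their matches carry no test.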

Additional observations from a re-analysis of the deposited data

How the results depend on the processing

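The 8 measured factors remained above background on every array under the 8 alternatives tried. Leaving out a sample could not change this, because each array has its own threshold. Nor could background at the 90th percentile, which only lowers the threshold. None of the 8 factors passed the limma test under any of the 12 alternatives. The smallest adjusted p among them (limma) ranged from 0.55 (without sample 103) to 0.997. The median of their 24 levels, 10.71, stayed between 10.68 and 10.77. The count of genes passing over the whole array, 30, was 18 after quantile and 18 after cyclic loess normalisation, 44 with a robust prior and its bulk degrees of freedom and 0 with per-gene ones, where 600 had an unadjusted p under 0.05; leaving out 1 sample gave 51 to 84, with 58 without sample 92. Of the genes on the context and marker lists 7 passed; 11 did with the first robust prior, 0 with the second, and 2 to 19 with 1 sample left out (2 without sample 92, 19 without sample 106). The cause was not tested. With 2 samples left, each fit rests on 1 difference per gene. No paired analysis was possible because the labels give 1 group.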
